A study of Mus musculus with 3 samples.

Results

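The genes described here are 9 adhesion receptor genes of leukocytes: the integrin alpha subunits Itgam, Itgax, Itgal, Itga4 and Itgav, the integrin beta subunits Itgb1, Itgb2 and Itgb7, and the hyaluronan receptor Cd44. They were chosen by name, and all 9 had a row among the 27998 genes of each count table. The libraries were 3 single-cell RNA libraries of sciatic nerve macrophages from C57BL/6 mice, an inbred laboratory strain with no transgene or gene deletion named in the labels. The first was of intact nerve (steady state) and the others were taken 1 day and 5 days after crush, so each time point had 1 library. Nerve crush severs the axons but leaves the nerve sheath in place. The sources used here do not give the age or sex of the mice, the number pooled in a library or the gate of the sort.

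Integrins are receptors made of an alpha and a beta subunit, and a cell needs both subunits to bring the pair to its surface. Itgb2 pairs with Itgam (Mac-1, the CD11b antigen used to sort myeloid cells), Itgax (CD11c) and Itgal (LFA-1) and binds ICAMs, fibrinogen and complement fragments. Itgb1 and Itgb7 pair with Itga4 and bind VCAM1, fibronectin and MAdCAM1, and Itgav pairs with several beta subunits to bind proteins with an RGD motif such as vitronectin and osteopontin. Cd44 is a single-chain receptor that binds hyaluronan in the matrix and is linked to actin by ezrin, radixin and moesin. Monocytes use these receptors to stop on vessel walls and to enter injured nerve.

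After removal of 6 of 5586 barcodes, the libraries held 728 cells (steady state), 2793 cells (day 1) and 2059 cells (day 5), with 1656510, 7963091 and 5524496 UMIs. A UMI is a tag that counts each captured RNA molecule once. The median depth was 2238.5, 2555 and 2473 UMIs per cell. The macrophage core genes (Adgre1, Csf1r, Fcgr1, Mertk, Cd68, C1qa, C1qb and C1qc) were all detected in every library, and their summed level was 25342, 6939 and 17083 CPM (counts per 1e+06 UMIs). Most of these sums was C1qa, C1qb and C1qc. At day 1 Fcgr1 was higher than at steady state (194, 510 and 322 CPM), and the other core genes were lower, Mertk only slightly. Monocyte markers summed to 1110, 3100 and 1502 CPM in the same order. F13a1, most of the steady-state monocyte sum (749, 384 and 295 CPM), and Lyz1 (89.3, 46.8 and 120 CPM) were lower at day 1. The other monocyte markers were higher at day 1. The part of the mix of cells in the differences between libraries was not tested, apart from the levels within clusters given below. Fewer cells of a type and less RNA per cell cannot be told apart in such sums. The libraries shared few barcodes: 2 between steady state and day 1, 3 between steady state and day 5, and 11 between day 1 and day 5. With 1 library per time point no test between time points was possible. All intervals below are exact 95% intervals that cover counting error only, and each comparison is between libraries.

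The 9 genes lie on 5 chromosomes of the mouse build GRCm38 (mm10). Itgal (chr7:127296260-127335138), Itgam (chr7:128062640-128118491) and Itgax (chr7:128129547-128150657) lie on the same strand of chromosome 7. Itgam and Itgax are 11055 bases apart, with 1 annotated gene between them, and Itgal lies 727501 bases before Itgam. Itga4 (chr2:79255426-79333123), Itgav (chr2:83724397-83806916) and Cd44 (chr2:102811141-102901665, minus strand) are on chromosome 2. Itgb1 is at chr8:128685654-128733200, Itgb2 at chr10:77530252-77565708 and Itgb7 at chr15:102215995-102231944. Itgam overlaps the predicted gene Gm49368 on its own strand, so its count is uncertain by any reads of that gene. On the other strand, Itga4 and Cd44 each overlap 1 annotated gene and Itgav overlaps 2. Their counts would be affected only if reads of the other strand were counted.

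The RefSeq promoter table (GRCm38.p6) held 7 of the 9 genes, all but Itgal and Itgb2. The 250 bases before the RefSeq start are shown for Itgam and Cd44, whose levels followed a like course over the 3 libraries, for Itgax, the low neighbour of Itgam, and for Itga4, which took another course. Capitals mark GAGGAA, the core recognised by the myeloid factor PU.1, and GGGCGG, the GC box, on either strand.
Itgam: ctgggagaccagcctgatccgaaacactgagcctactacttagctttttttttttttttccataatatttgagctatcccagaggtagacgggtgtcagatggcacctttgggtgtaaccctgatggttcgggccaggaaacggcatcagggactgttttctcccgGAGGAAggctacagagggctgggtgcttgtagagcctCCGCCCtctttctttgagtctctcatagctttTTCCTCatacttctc
Itgax: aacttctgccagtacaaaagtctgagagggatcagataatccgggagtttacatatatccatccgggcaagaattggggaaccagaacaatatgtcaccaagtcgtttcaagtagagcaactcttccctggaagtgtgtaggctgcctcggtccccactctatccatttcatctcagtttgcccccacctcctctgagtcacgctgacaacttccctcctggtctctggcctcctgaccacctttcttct
Itga4: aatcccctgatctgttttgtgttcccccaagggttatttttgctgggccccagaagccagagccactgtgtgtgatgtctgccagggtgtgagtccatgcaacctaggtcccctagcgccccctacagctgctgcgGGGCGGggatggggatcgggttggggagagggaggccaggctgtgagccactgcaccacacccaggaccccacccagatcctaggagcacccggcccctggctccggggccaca
Cd44: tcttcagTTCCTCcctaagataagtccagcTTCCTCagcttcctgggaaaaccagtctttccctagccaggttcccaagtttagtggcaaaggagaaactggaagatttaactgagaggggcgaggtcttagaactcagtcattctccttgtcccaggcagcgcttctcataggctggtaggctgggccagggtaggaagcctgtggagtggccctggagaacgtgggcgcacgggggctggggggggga
The window of Itgam (chr7:128062390-128062639) held GAGGAA at 84 to 79 bases before the start and again, on the other strand, at 15 to 10 bases, with a GC box between them at 47 to 42 bases. The Cd44 window (chr2:102901666-102901915, read on the minus strand) held GAGGAA at 243 to 238 and at 220 to 215 bases, both on the strand opposite the gene, and the hypoxia response core ACGTG at 29 to 25 bases. In the Itgax window (chr7:128129300-128129549) there was an AP-1 motif, TGANTCA, at 56 to 50 bases and no GAGGAA. The Itga4 window (chr2:79255176-79255425) held a GC box at 114 to 109 bases and no GAGGAA. The windows of Itgav and Itgb1 also held GAGGAA, and that of Itgb7 did not. These letters are common: GAGGAA was in 23.3% of the 32851 promoter windows of the table, GGGCGG in 32.7%, ACGTG in 16.6% and TGANTCA in 6.75%. The NF-kappaB consensus and the TATA box (TATAAA), present in 0.356% and 12.4% of all windows, were in none of the 7.

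Integrin and Cd44 transcripts were for the most part higher in both crush libraries than at steady state. Of the 7 genes that reached 20 CPM in either library of each comparison, those with the largest ratios at day 1 were Itgav, Itgam, Cd44 and Itgb7, and at day 5 they were Itgav, Itga4, Itgam and Cd44. None of the 7 was below its steady-state level at either time, although the intervals of Itga4 at day 1 and of Itgb7 at day 5 hold a ratio of 1. Itga4, Itgav and Itgb7 were under 20 CPM at steady state and passed only through the crush library, so their ratios could only exceed 1. Itgax and Itgal stayed under 20 CPM in all 3 libraries.

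Itgam, the alpha subunit of Mac-1, was at 50.7 CPM (40.4 to 62.8) at steady state, 244 CPM (233 to 255) at day 1 and 137 CPM (127 to 147) at day 5. The 3 intervals did not overlap, and day 1 was the highest. The level was 4.81-fold higher at day 1 than at steady state (3.86 to 6.05) and 2.70-fold higher at day 5 (2.15 to 3.42). From day 1 to day 5 it was 1.78-fold lower (1.64 to 1.94).

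Itgb2, the beta subunit that Itgam, Itgax and Itgal share, was at 109 CPM (93.4 to 126), 263 CPM (251 to 274) and 150 CPM (139 to 160). It followed the same order as Itgam with smaller ratios to steady state, 2.42-fold at day 1 (2.07 to 2.83) and 1.38-fold at day 5 (1.17 to 1.63). At steady state 1 cell held 28 of the 180 Itgb2 UMIs, and the next richest cell held 6. Without the richest cell of each library the ratios were 2.82 (2.39 to 3.35) at day 1 and 1.61 (1.35 to 1.93) at day 5.

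The balance of the Mac-1 subunits also differed. There were 0.467 Itgam UMIs per Itgb2 UMI at steady state (0.356 to 0.608), 0.928 at day 1 (0.872 to 0.988) and 0.915 at day 5 (0.828 to 1.01). Without the richest cells the steady-state value was 0.526 (0.396 to 0.694), still below both crush libraries. How well each transcript is captured is not known, so these ratios show a shift between libraries and not the number of subunits in a cell. The steady-state cells of the epineurial macrophage-like cluster described below had 39 Itgam and 36 Itgb2 UMIs. Those of cluster 5 had 41 and 126, with 28 of the Itgb2 UMIs in 1 cell. The part of the mix of cells in the shift was not tested. Itgam made up 95.5% of the UMIs of the 3 Itgb2 partners at steady state, 94.8% at day 1 and 91.3% at day 5.

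The other partners of Itgb2 were scarce. Itgax, the CD11c gene often used to mark dendritic cells and some activated macrophages, had 3, 69 and 35 UMIs, or 1.81, 8.67 and 6.34 CPM. Itgal, the LFA-1 subunit typical of lymphocytes and some monocytes, had 1, 38 and 37 UMIs, or 0.604, 4.77 and 6.70 CPM. Both were lower at steady state, but on so few UMIs that the ratios of Itgal to steady state spanned 1.34 to 320 at day 1 and 1.87 to 450 at day 5. Of the 37 Itgal UMIs at day 5, 7 came from 1 cell that carried markers of lymphoid or mast cells. Of the 7 T cell markers, 5 were measured, and they summed to 3.02, 0.377 and 5.07 CPM. Cd3e and Cd8a were at 0 in all 3 libraries, while at day 5 Cd3g had 5 UMIs, Cd3d 3 and Cd4, which some macrophages also express, 20. The part of T cells in the Itgal level was not tested.

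Itga4, the alpha subunit of VLA-4, took a different course, with 17.5 CPM (11.7 to 25.1), 23.2 CPM (20.005 to 26.8) and 53.0 CPM (47.1 to 59.5). The steady-state and day 1 intervals overlapped and day 5 stood above both. The day 1 ratio to steady state was 1.33 with an interval that holds 1 (0.894 to 2.04), and day 5 was 3.03-fold above steady state (2.07 to 4.60) and 2.28-fold above day 1 (1.89 to 2.76).

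The beta partners of Itga4 did not share that course. Itgb1, which also pairs with many matrix-binding alpha subunits, was at 93.6 CPM (79.4 to 110), 150 CPM (142 to 159) and 148 CPM (138 to 159). It was 1.61-fold above steady state at day 1 (1.36 to 1.91), and the 2 crush libraries differed by less than their counting error (ratio 0.986, 0.901 to 1.08). Itgb7, known from gut-homing lymphocytes, was at 13.9 CPM (8.80 to 20.8), 44.0 CPM (39.5 to 48.8) and 20.3 CPM (16.7 to 24.4). Day 1 stood above the other two, whose intervals overlapped. Its level was 3.17-fold above steady state at day 1 (2.08 to 5.06) and 2.17-fold lower at day 5 than at day 1 (1.75 to 2.71). Itga4 UMIs per Itgb7 UMI thus went from 1.26 (0.704 to 2.28) to 0.529 (0.440 to 0.633) and 2.62 (2.10 to 3.28), and per Itgb1 UMI from 0.187 to 0.155 and 0.358.

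Itgav, the alpha subunit of RGD-binding integrins, was at 5.43 CPM (2.48 to 10.3), 26.9 CPM (23.4 to 30.7) and 30.6 CPM (26.2 to 35.6). Both crush libraries stood above steady state, and their own intervals overlapped. The ratio to steady state was 4.95 at day 1 (2.56 to 10.97) and 5.63 at day 5 (2.90 to 12.5). These rest on 9 steady-state UMIs, 5 of them in 1 cell. Without the richest cell of each library the ratios were 10.5 (4.03 to 38.8) and 12.3 (4.73 to 45.8). Of its beta partners outside the 9 genes, Itgb3 had 0 UMIs in all 3 libraries, which allows up to 1.81, 0.377 and 0.543 CPM (3 counts), and Itgb5 was at 71.2, 63.7 and 127 CPM. Itgb5 was 1.79-fold above steady state at day 5 (1.47 to 2.19), while its day 1 ratio was 0.894 (0.730 to 1.10).

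Cd44 was at 52.5 CPM (42.1 to 64.8), 225 CPM (214 to 235) and 109 CPM (100.3 to 118). The order was that of Itgam, with no overlap between the intervals. The level was 4.28-fold above steady state at day 1 (3.45 to 5.37) and 2.07-fold at day 5 (1.65 to 2.62), and day 5 was 2.07-fold below day 1 (1.88 to 2.27).

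**Figure D1:**
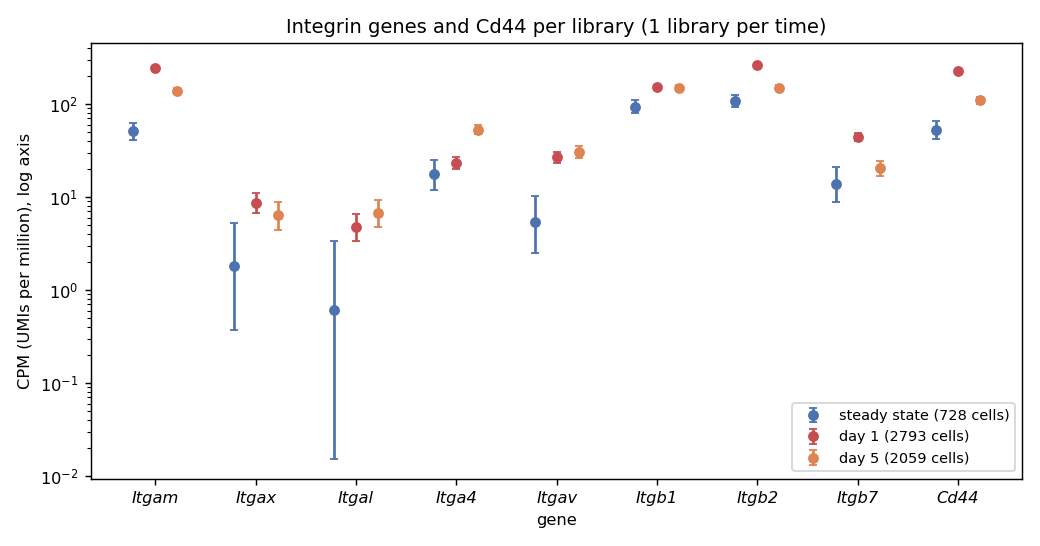
CPM of each gene in each library (log axis). Points are 1 library per time point and bars are exact 95% Poisson intervals. Itgam, Itgb2, Itgb7 and Cd44 are highest at day 1, and Itga4 is highest at day 5.

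At day 1, 5 of the 7 genes tested were at least 2-fold above steady state (Itgam, Itgav, Itgb2, Itgb7 and Cd44) and 0 were at least 2-fold below. Of all 5061 genes that reached 20 CPM in 1 of the libraries, 16.4% were higher and 13.6% lower by that rule. Itga4, Itgav and Itgb7 reached 20 CPM only in the day 1 library, so they could not be called lower. The median log2 ratio was 1.66 for the 7 genes and 0.16 for all genes. Itgam and Cd44, above 20 CPM in both libraries, had a larger ratio than 96.3% and 95.8% of the genes tested. Itgb2 and Itgb1, also above 20 CPM in both, stood above 89.1% and 73.4%. Itgav, Itgb7 and Itga4 stood above 96.4%, 93.5% and 61.7%, but their ratios could only exceed 1, so these ranks are no separate support. The median of 1.66 is the value of Itgb7 and has the same limit.

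At day 5, 4 of 7 were at least 2-fold above steady state (Itgam, Itga4, Itgav and Cd44) and 0 below. The background was 8.96% higher and 10.0% lower of 4890 genes. Itga4, Itgav and Itgb7 passed the filter only through the day 5 library, so they could not be called lower. The median log2 ratio was 1.05 for the 7 genes and 0.03 for all genes. Itgav had a larger ratio than 98.5% of the genes tested and Itga4 than 96.5%. This comparison and the one at day 1 use the same steady-state library.

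Between the crush libraries, 1 of 7 was at least 2-fold higher at day 5 (Itga4) and 2 were at least 2-fold lower (Itgb7 and Cd44). Of 4768 genes, 4.03% were higher and 5.41% lower. The median log2 ratio was -0.81 for the 7 genes and -0.13 for all genes. Itgam and Itgb2 had log2 ratios of -0.83 and -0.81, just short of 2-fold. The call of Itga4 ended when each cell was weighted equally (log2 ratio 0.89), and the calls of Itgb7 and Cd44 ended when ratios were centred on the median of all genes.

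The share of cells with at least 1 UMI was compared after each cell was thinned to 1000 UMIs, which left 638, 2496 and 1777 cells and dropped 90, 297 and 282 shallower ones. Itgam was detected in 3.92% of the thinned cells at steady state (2.55 to 5.73), 18.6% at day 1 (17.1 to 20.2) and 12.0% at day 5 (10.6 to 13.6). Unthinned, the shares were 7.42%, 37.6% and 24.0%. Itgb2 was detected in 8.15%, 19.0% and 12.3% of thinned cells (unthinned 13.9%, 37.7% and 25.4%) and Cd44 in 3.76%, 15.6% and 7.99% (unthinned 6.32%, 31.3% and 17.2%). For these 3 genes the intervals of day 1 and day 5 did not overlap, and the shares had the order of the CPM.

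Itgb1 was detected in 7.84% (5.87 to 10.2), 12.2% (10.96 to 13.6) and 13.3% (11.7 to 14.9) of thinned cells (unthinned 16.1%, 26.2% and 25.6%). Itga4 was detected in 1.72%, 2.003% and 4.22% (unthinned 2.61%, 4.62% and 9.76%), with day 5 (3.33 to 5.26) above the day 1 interval (1.49 to 2.63). Itgb7 was detected in 0.940%, 3.49% and 1.24% (unthinned 1.65%, 8.09% and 3.50%), and Itgav in 0.470%, 2.08% and 2.93% (unthinned 0.687%, 5.05% and 5.68%). Itgax was detected in 0.157%, 0.681% and 0.338% of thinned cells. Itgal was in 0 of 638 cells at steady state, where 3 counts would be a share of 0.470%, and in 0.481% and 0.506% of cells at day 1 and day 5. The rare genes were thus rare in the number of cells as well as in UMIs.

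**Figure D2:**
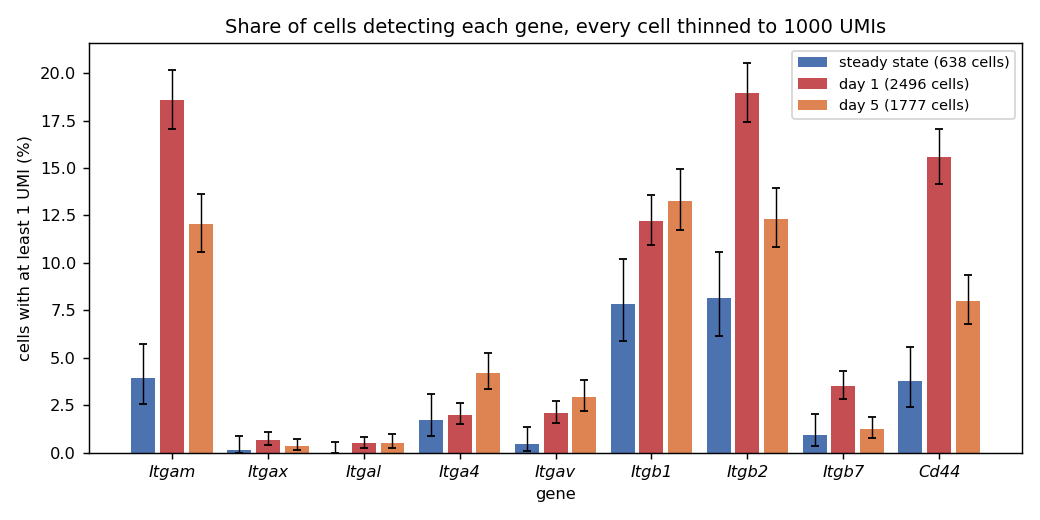
Share of cells with at least 1 UMI of each gene after thinning every cell to 1000 UMIs. Bars are 1 library per time point, with exact 95% Clopper-Pearson intervals. Itgam goes from 3.92% of cells at steady state to 18.6% at day 1 and 12.0% at day 5.

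Free RNA can place UMIs in cells that do not express a gene. Only 8 cells carried 10 or more UMIs of fibroblast markers, at a median of 1565 UMIs, and they had Itgb2 in 4 and Itgam in 3 of 8 cells. They also held the macrophage genes Csf1r and C1qa in 4 cells each, so they gave no clean background for the shares. Within the day 1 library Itgam, Itgb1, Itgb2, Itgb7 and Cd44 differed between groups of cells by more than counting error, as the cluster levels show. For Itgax and Itgal the part of free RNA was not tested.

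In the thinned cells, 24.1% had at least 1 of the 9 genes at steady state, 54.2% at day 1 and 44.7% at day 5. At least 2 genes were seen in 2.82%, 16.1% and 9.12%, and the mean number of genes detected per cell was 0.270, 0.741 and 0.549. Detection of a pair in the same cell was compared with the product of the 2 shares. For Itgam and Itgb2, 2 steady-state cells had both (2.04 expected from the product), 105 day 1 cells (87.9 expected, ratio 1.19, 0.977 to 1.45) and 29 day 5 cells (26.4 expected, ratio 1.10, 0.736 to 1.58). At day 1, Itgb2 was found in 22.6% of cells with Itgam (18.9 to 26.7) and in 18.1% of cells without it (16.5 to 19.9). The interval of the ratio is the Poisson interval of the observed number over the expected number, which is taken as fixed. It holds 1 in all 3 libraries, so by this measure an excess of cells with both Mac-1 subunits was neither shown nor excluded.

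The other partner pairs were seen together in few cells. Itga4 and Itgb1 were both detected in 11 day 1 cells (6.11 expected, ratio 1.80, 0.899 to 3.22) and 6 day 5 cells (9.96 expected, ratio 0.602, 0.221 to 1.31). Itgav and Itgb1 were both detected in 6 cells at day 1 (6.35 expected) and 9 at day 5 (6.91 expected). Itga4 with Itgb7, Itgax with Itgb2 and Itgal with Itgb2 were each found in at most 4 cells of a library. Over the 36 pairs in each library with a ratio, the same Poisson interval lay wholly to 1 side of 1 in a single case. It was Itgb7 and Cd44 at day 1, with 23 cells against 13.6 expected (ratio 1.70, 1.08 to 2.55). That pair was singled out after its values were seen.

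Without thinning, Itgam and Itgb2 were found together in 497 cells at day 1 against 395 expected (ratio 1.26, 1.15 to 1.37) and in 163 cells at day 5 against 125 expected (ratio 1.30, 1.11 to 1.51). Those cells differed in depth, and at equal depth the ratios were the 1.19 and 1.10 given above.

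**Figure D3:**
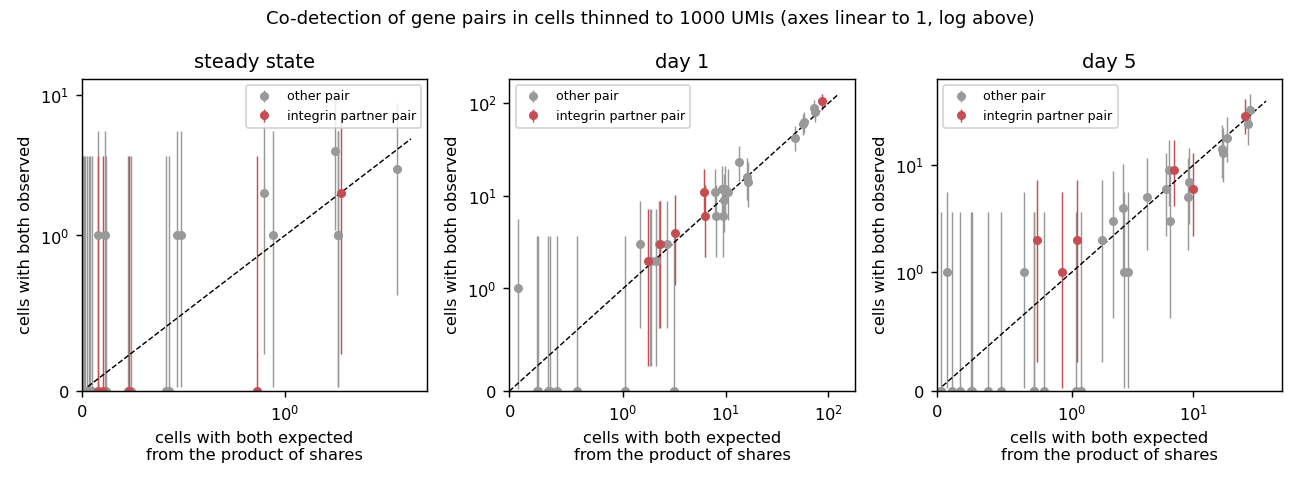
Cells with both genes of a pair, observed against the number expected from the product of the 2 shares, in cells thinned to 1000 UMIs (both axes linear to 1 and log above). Each point is 1 pair in 1 library, bars are exact 95% Poisson intervals of the observed number, and red marks the 6 integrin partner pairs. The points of pairs with many cells lie close to the line of equality, as for Itgam and Itgb2 at day 1 (105 observed, 87.9 expected).

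Cells from all 3 libraries entered 1 clustering from which the 9 genes and their pathway genes were left out. At steady state the 2 clusters with at least 50 cells differed in these receptors. Cluster 8 (206 steady-state cells), epineurial macrophage-like by Cd209f, Cd209g, Cd209d, Cd209b, Fcna and Retnla, had more Itgam and Itgb7. Cluster 5 (483 steady-state cells), unnamed and led by Lilra5 and Hpgd, had more Cd44. Itgam was at 87.1 CPM in cluster 8 and 37.4 CPM in cluster 5, a 2.33-fold difference (1.46 to 3.71). Cd44 was at 11.2 CPM in cluster 8 and 65.6 CPM in cluster 5, a 5.88-fold difference (2.40 to 18.6). Itgb7 was at 22.3 CPM in cluster 8 (10 UMIs, 4 of them in 1 cell) and 2.73 CPM in cluster 5 (3 UMIs). Itgb1 (112 and 85.7 CPM) and Itgb2 (80.4 and 115 CPM) had overlapping intervals in the 2 clusters.

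At day 1 the monocyte-like cluster 2 (883 cells; Chil3, Vcan and Hp among its leading genes) had 287 CPM of Itgam (269 to 305), 290 CPM of Itgb2 (272 to 309) and 260 CPM of Cd44 (243 to 278). Itgb2 was at a like level, 319 CPM (290 to 350), in cluster 7 (unnamed; Cxcl3, Slpi and Mmp12), and Cd44, at 288 CPM (242 to 340), in cluster 9 (unnamed; Rsad2, Cxcl10 and Ifit3, known interferon-response genes). Both intervals overlapped those of the monocyte-like cluster. With no gene left out of the clustering, both genes were highest in its monocyte-like cluster, a smaller group of 248 day 1 cells. It had 396 CPM of Itgb2 (358 to 437) and 406 CPM of Cd44 (367 to 447). Among clusters with at least 50 day 1 cells, cluster 10 (unnamed, led by Stard6, Ch25h and Il1a) was lowest in Itgam and Cd44. It had 106 CPM of Itgam (73.2 to 148), 84.0 CPM of Cd44 (55.3 to 122) and 261 CPM of Itgb1 (208 to 324). Itgb1 was at like levels in cluster 6, described below, at 231 CPM (192 to 275), and in the unnamed cluster 3, at 226 CPM (161 to 307). A single cell held 21 of the 84 Itgb1 UMIs of cluster 10. Without that cell the level was 198 CPM (152 to 253). The monocyte-like cluster without its own richest cell was at 141 CPM (129 to 155), and those intervals overlapped. Likewise without the richest cell, Itgb1 was at 192 CPM (132 to 270) in cluster 3 and 158 CPM (126 to 196) in cluster 6.

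Among clusters with at least 50 cells, Itgb7 had its highest levels at day 1 and day 5 in cluster 6. The leading genes of cluster 6 included the class II genes H2-DMb1, H2-Ab1, H2-Aa and H2-Eb1 and the dendritic cell markers Cd209a and Napsa. Cluster 6 is called dendritic cell-like by the marker rule, and the name rests on 3 markers. At day 1 cluster 6 (137 cells) had 125 CPM of Itgb7 (96.5 to 159), against 45.0 CPM (38.2 to 52.7) in the monocyte-like cluster and 3.11 CPM (0.0788 to 17.3) in cluster 10. A single cell held 29 of the 66 Itgb7 UMIs of cluster 6 at day 1. With the cell richest in Itgb7 left out of each cluster, an alternative added after seeing the data, cluster 6 had 70.8 CPM (49.8 to 97.5) and the monocyte-like cluster 43.3 CPM (36.6 to 50.9), a 1.63-fold difference (1.11 to 2.36) in place of 2.77-fold (2.05 to 3.72). At day 5 cluster 6 (317 cells) had 47.8 CPM (36.6 to 61.4). Cluster 3 had 9.84 CPM (4.72 to 18.1) and cluster 4 had 9.47 CPM (6.13 to 14.0). The smaller cycling cell-like cluster 11, with 49 day 5 cells, had 55.3 CPM (26.5 to 101.7). With no gene left out of the clustering, the cycling cell-like cluster (51 day 5 cells) had 53.0 CPM of Itgb7 (25.4 to 97.4). The dendritic cell-like cluster then had 29.0 CPM at day 5 (22.6 to 36.8), and the intervals overlapped. Among clusters with at least 50 cells, Itga4 at day 5 was also highest in cluster 6, at 69.0 CPM (55.3 to 85.0). It was at 51.1 CPM (42.9 to 60.5) in cluster 4, the largest day 5 cluster (781 cells, led by Dcn, Gdf15 and Ccl8). Those intervals overlapped. With no gene left out, Itga4 at day 5 was at 63.6 CPM (32.8 to 111) in the cycling cell-like cluster. Dcn is also a fibroblast marker, and the part of fibroblast RNA in cluster 4 was not tested.

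A few clusters were present in more than 1 library. In the epineurial macrophage-like cluster 8, Itgam was at 87.1 CPM at steady state (39 UMIs) and 340 CPM at day 5 (33 UMIs in 59 cells), 3.91-fold higher (2.38 to 6.37). Of those 33 UMIs, 14 came from 1 cell. Without the cell richest in Itgam in each library, the day 5 level was 200.2 CPM (121 to 313) and the ratio 2.54 (1.37 to 4.57), and the day 5 interval overlapped that of cluster 3, at 153 CPM (130 to 179). Cd44 in this cluster was at 11.2 CPM (5 UMIs) and 82.5 CPM (8 UMIs). Itgb1 and Itgb2 there had ratios of 0.831 (0.359 to 1.71) and 1.41 (0.648 to 2.83). The day 5 cells of the cluster had a median of 1425 UMIs and the steady-state cells 2222.5 UMIs. In cluster 6, day 5 against day 1, Itga4 was 2.43-fold higher (1.40 to 4.53), and Itgb7 was 2.61-fold lower (1.81 to 3.76), Itgb1 1.82-fold lower (1.42 to 2.31), Cd44 1.69-fold lower (1.34 to 2.13) and Itgam 1.57-fold lower (1.24 to 1.99). Without the cell richest in each gene, the day 5 level was 1.70-fold lower (1.08 to 2.63) for Itgb7, and 1.31-fold lower for Itgb1, with an interval that included no difference (0.994 to 1.73). The Itga4 difference depended on the clustering: with no gene left out, the dendritic cell-like cluster had 50.8 CPM (33.2 to 74.5) at day 1 and 58.1 CPM (48.8 to 68.6) at day 5, and the intervals overlapped. In cluster 3, with a median of 1256 UMIs per cell at day 5 and only 11 Itga4 UMIs at day 1, the Itga4 ratio was 0.618 (0.311 to 1.34).

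**Figure D4:**
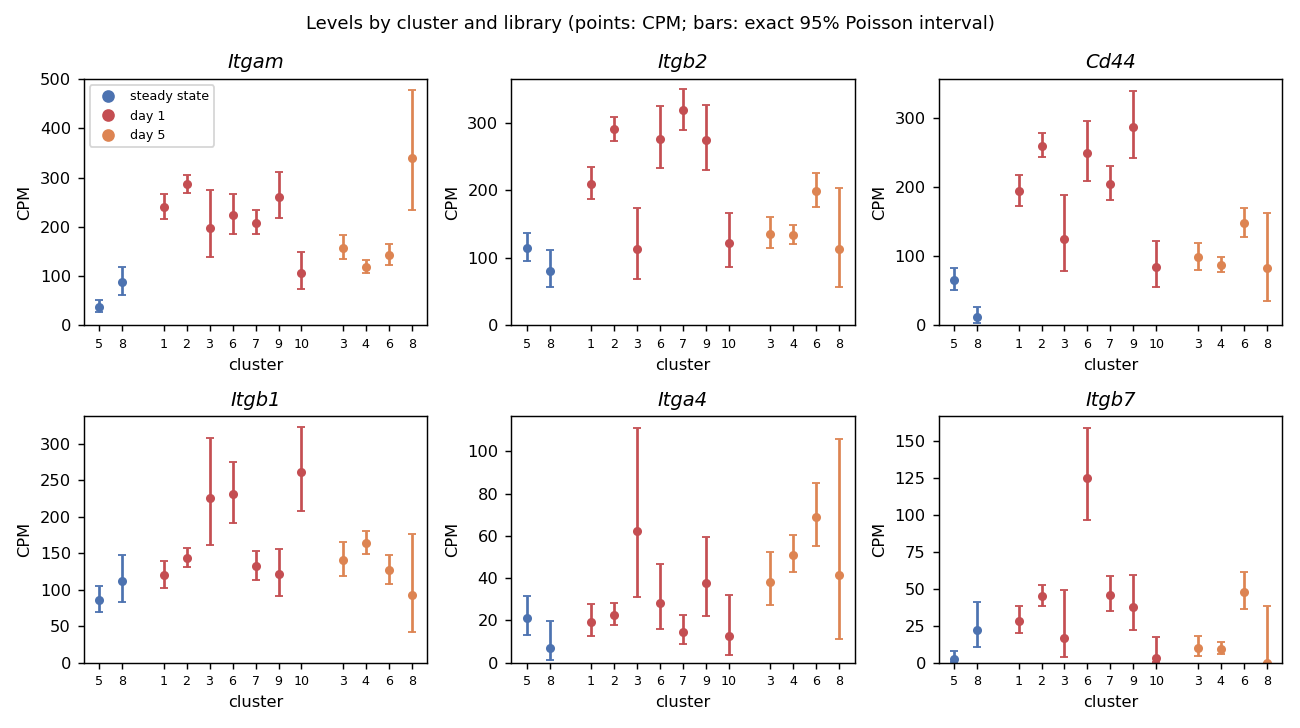
CPM of 6 genes in each cluster with at least 50 cells in a library, grouped by library. Points are the sum over the cells of a cluster in 1 library and bars are exact 95% Poisson intervals. The Itgb7 point of cluster 6 at day 1 (125 CPM) and the Itgam point of cluster 8 at day 5 (340 CPM) each hold many UMIs of 1 cell and stand at 70.8 and 200.2 CPM without it.

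Over the 13 cluster-by-library sums, the genes with the most similar pattern were taken from 2236 genes by the Pearson correlation of log2(CPM + 10). These values are a description, since the points share libraries and depth. For Itgam the closest were Dnajc15 (0.915), Myl6 (0.904), the essential myosin light chain, and Gda (0.895). Closest to Itgb2 were Adssl1 (0.941), Gsr (0.940), the glutathione reductase, and Aldoa (0.931), an enzyme of glycolysis. Cd44 was closest to Ezr (0.940), which encodes its actin linker ezrin, Hif1a (0.935), the oxygen-regulated transcription factor, and Osm (0.932), the cytokine oncostatin M. Itga4 was closest to Tob2 (0.880), H2afz (0.837) and Ly86 (0.825), and Itgb1 to Ufc1 (0.880), Ssr4 (0.864) and Cct2 (0.862). Among the 9 genes themselves Itgb2 and Cd44 were the most alike (0.890), more than Itgb2 and its partner Itgam (0.552), and Itga4 had values near 0 with Itgb7 (0.0024) and Itgb1 (0.090).

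The rest of the pathway was followed in 5 lists. Of 18 other integrin subunits, 2 passed 20 CPM in each comparison, Itgb5 and Itga6, and Itga6, a laminin receptor subunit, was at 21.7, 19.2 and 44.2 CPM. Itgad, the neighbour of Itgax, had 0 UMIs in all 3 libraries. The 22 ligand genes included those with the largest differences. Of 7 ligand genes compared at day 1, 3 were higher by 2-fold and 3 lower, and of 8 at day 5, 4 were higher and 3 lower. Of all genes, 16.4% were higher and 13.6% lower at day 1, and 8.96% and 10.0% at day 5. Spp1, which encodes osteopontin, a ligand of Itgav and Cd44, was at 13.9, 8178 and 2406 CPM. Fn1, which encodes fibronectin, was at 4.83, 1084 and 487 CPM, and Thbs1, which encodes thrombospondin 1, at 1.81, 893 and 348 CPM. All 3 were highest at day 1. In the other direction, Cyr61, a matricellular ligand, was at 59.8, 1.00 and 0.362 CPM, and Icam1, the ligand of Mac-1 and LFA-1, named after its values were seen, was at 120, 32.3 and 43.6 CPM. Mfge8, which encodes an RGD protein that bridges dying cells to Itgav integrins, was at 24.1, 3.52 and 8.15 CPM, and F11r, which encodes the junction molecule JAM-A, was at 7.24, 7.91 and 24.1 CPM. Both were also named after their values were seen. Between day 1 and day 5, Fn1, Spp1, Thbs1 and Tgfbi were the 4 of 6 ligand genes lower by 2-fold. F11r was the 1 that was higher. Of all genes, 5.41% were lower and 4.03% higher.

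The 28 genes for integrin activation and for linking integrins to actin differed less. By the 2-fold rule 4 of 20 were higher at day 1 and 0 lower, and 3 of 21 were higher at day 5 and 0 lower. The same rule called 16.4% of all genes higher and 13.6% lower at day 1, and 8.96% and 10.0% at day 5. The median log2 ratio of the list was 0.53 at day 1 and 0.48 at day 5, against 0.16 and 0.03 for all genes. Tln1, which encodes talin, the protein that binds beta subunit tails and activates integrins, was at 110, 297 and 223 CPM. Lims1, which encodes the adaptor PINCH1, was at 44.1, 102 and 97.2 CPM, and Apbb1ip, which encodes the Rap1 effector RIAM, was 2.08-fold above steady state at day 1 (1.67 to 2.62). The fourth gene, Cyth1, which encodes the Itgb2-binding protein cytohesin-1 and was named after its values were seen, was at 18.1 CPM at steady state and 45.1 CPM at day 1. Fyb, an adaptor of integrin activation in leukocytes, was at 120 CPM at steady state, 229 CPM at day 1 and 276 CPM at day 5. Rasgrp2, an activator of Rap1, was 1.86-fold above steady state at day 5 (1.40 to 2.52).

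Of 17 other leukocyte adhesion genes, 15 were in the tables. Of 9 compared at day 1, 2 were higher by 2-fold (22.2%, all genes 16.4%) and 1 lower (11.1%, all genes 13.6%). Of 8 at day 5, 0 were higher (all genes 8.96%) and 1 lower (12.5%, all genes 10.0%). The higher genes at day 1 were Glg1, which encodes an E-selectin ligand, at 22.9 and 51.9 CPM, and Cd24a, with 0 UMIs at steady state and 27.8 CPM at day 1, at least 15.3-fold higher against 3 counts. Emb, which encodes the adhesion protein embigin, was 1.76-fold above steady state at day 1 (1.52 to 2.04). Sirpa and Cd47, a receptor and its ligand, were 1.70-fold (1.47 to 1.98) and 1.53-fold (1.37 to 1.72) above steady state at day 5. The lower gene at both times was Cd164, which encodes the sialomucin endolyn, at 50.7, 19.6 and 12.3 CPM. Selplg, which encodes the P-selectin ligand PSGL-1, was at 177, 93.6 and 140 CPM. Of 16 Cd44 partners and hyaluronan genes, 2 of the 8 compared were higher by 2-fold and 1 was lower at both times. These shares were 25.0% and 12.5%, against 16.4% and 13.6% of all genes at day 1 and 8.96% and 10.0% at day 5. Ezr was at 11.5, 71.1 and 51.2 CPM, 6.20-fold above steady state at day 1 (3.93 to 10.4) and 4.47-fold at day 5 (2.81 to 7.53). Mmp14, a membrane protease that cleaves Cd44, had 0 UMIs at steady state and 53.9 and 34.0 CPM in the crush libraries. The day 1 level was at least 29.7-fold higher against 3 counts. Msn, which encodes the actin linker moesin, was at 141, 225 and 170 CPM, and Stab1, a scavenger receptor that binds hyaluronan, at 246, 177 and 197 CPM. Lyve1, another hyaluronan receptor and a marker of epineurial macrophages, was at 279, 27.9 and 20.8 CPM, and was lower in the libraries where Cd44 was higher.

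**Figure D5:**
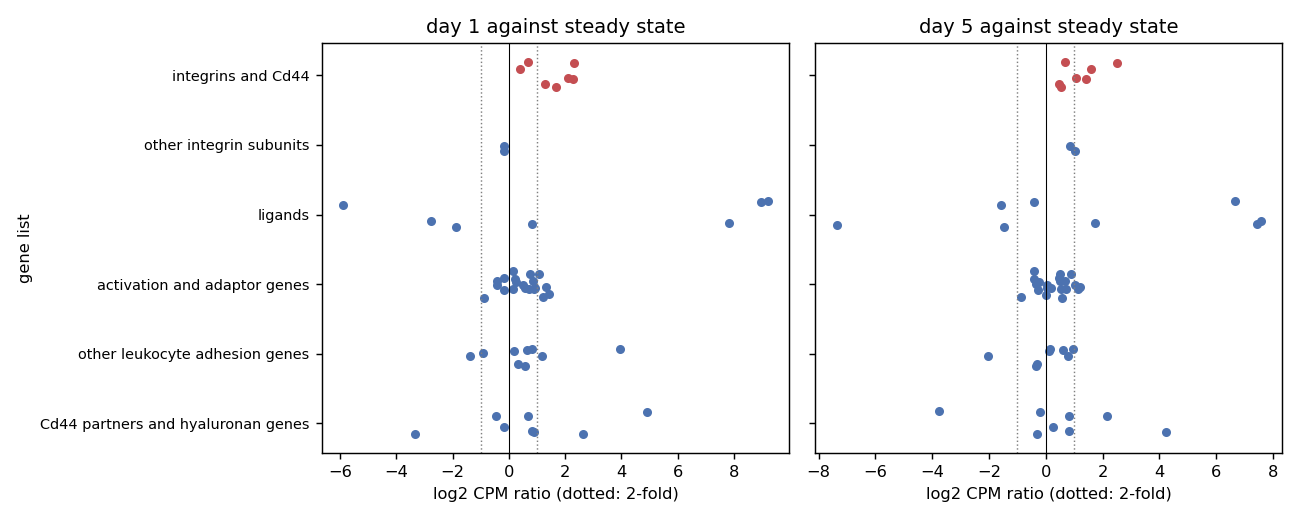
Log2 CPM ratio to steady state of every gene that reached 20 CPM, by gene list, at day 1 (left) and day 5 (right). Each point is 1 gene, the dotted lines mark 2-fold, and genes with 0 UMIs in 1 library are drawn at 3 counts. The 7 integrin and Cd44 points lie right of 0 in both panels, and the ligands spread widely in both directions. Itga4, Itgav and Itgb7 reached 20 CPM only in the crush libraries, so their points could lie only there.

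Lists of markers of other cell types were summed in each library. The fibroblast list summed to 116, 236 and 151 CPM, with Pdgfra at 0 at steady state and day 1. Most of these sums was Gsn, at 86.3, 220 and 126 CPM. Dcn, the next highest, was at 17.5, 10.0 and 15.6 CPM. The Schwann cell list summed to 318, 56.6 and 65.0 CPM with Sox10 at 0 in all 3 libraries. Pmp22 made up most of that, at 278, 38.2 and 46.7 CPM. The endothelial list summed to 32.6, 17.0 and 11.2 CPM. The neutrophil list summed to 127, 88.4 and 39.3 CPM, with S100a8, S100a9, Retnlg, Camp and Ltf at 0 at steady state. Mmp9 made up most of the steady-state sum, at 116, 36.4 and 9.77 CPM, and S100a8 was at 29.9 CPM at day 1. At least 5 UMIs of neutrophil genes were found in 7 cells, all of day 1. Of the platelet list, Itga2b, Gp9 and Itgb3 were at 0 in all 3 libraries. Ppbp, a platelet gene, was the only member of that list with UMIs at steady state and day 1, where the list summed to 19.9 and 544 CPM. Without the cells that carried fibroblast, neutrophil, lymphoid or mast cell markers, all 27 log2 ratios of the 9 genes stayed within their counting intervals. Of 5580 cells, 8 carried fibroblast, 7 neutrophil and 22 lymphoid or mast cell markers, and 18 of those 22 also held C1qa. With so few cells left out, this says little on the part of other cell types, which was not tested.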

How the data were processed

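The authors deposited whole-number UMI counts per gene and cell barcode for each library, not normalized. Per the labels the reagents were 10x Genomics version 1. Cell Ranger 2.0.2 and mm10 are listed in the submitters' processing notes. A pooled table of the 3 libraries was not used. Barcodes with at least 200 genes and at most 10% mitochondrial UMIs were kept. UMIs were summed per library or cluster and scaled to CPM (per 1e+06 UMIs). Intervals are exact at 95%: Poisson for CPM and for cells with both genes of a pair, conditional binomial for other ratios, Clopper-Pearson for shares. A count of 0 was set to 3 counts. Genes that reached 20 CPM in 1 of the 2 libraries were compared at 2-fold. Scrublet, run per library, called 18 cells doublets (0.323%), too few to rely on, so none were removed. Clusters came from scanpy 1.11.5 (Leiden resolution 1, 2000 variable genes, 30 components, 15 neighbours, no integration) and were named where 3 or more markers of a class were 2-fold above the remaining cells and 2 or more stood among the 10 leading genes. Positions are from GENCODE on GRCm38. From each list, up to 4 genes that reached 50 CPM were named by the size of their ratio to steady state, as were Itgb3, Itgb5 and Itgad, and the 3 genes most like each member with at least 50 CPM. The 9 genes and the lists were chosen with earlier results of these data known. Only the ratio and its interval were tested on simulated counts, for day 1 against steady state. Those were Poisson counts, with no UMIs gathered in single cells. Thinning, co-detection and clustering were not tested in this way.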

Additional observations from a re-analysis of the deposited data

How the results depend on the processing

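With no minimum beyond 1 UMI in each library, which adds Itgax and Itgal, the median log2 ratio of the genes was 2.10 at day 1 and 1.43 at day 5 against steady state, and -0.45 between day 5 and day 1. Without the cells with markers of other types, an alternative added after seeing the data, the day 5 median was 1.27 against steady state. At a minimum of 50 CPM, 3 genes were higher at day 1 and 1 was lower at day 5 than at day 1. At 3-fold, 2 were higher at day 5 against steady state, and 0 were higher and 0 lower at day 5 than at day 1. At 1.5-fold, 4 were lower at day 5 than at day 1. With each cell weighted equally, 0 were higher at day 5 than at day 1. Centred on the median of all genes, 0 were lower at day 5 than at day 1, and the Itgb1 log2 ratio went from -0.02 to 0.11. The shares of all genes called under these settings are not given here, so these counts show only how the calls moved. Without the dendritic cell-like clusters, the day 5 against day 1 log2 ratios of Cd44, Itgb2 and Itgb7 were -1.20, -0.96 and -1.66. The shares of cells depend on depth: 22 of 27 lay outside their interval without thinning and 18 of 27 at 1500 UMIs. With no gene left out of the clustering, the highest cluster level of Cd44 at day 1 was 406 CPM and that of Itgb2 396 CPM. Both were in the monocyte-like cluster, which had neither maximum in the clustering used above and here held 248 day 1 cells. The highest level of Itgam at day 1 was then 320 CPM, in the same cluster, and that of Itgb2 at day 5 was 167 CPM. Without the cell richest in the gene in each cluster, added after seeing the data, the highest levels moved to 200.2 CPM for Itgam at day 5, and to 198 CPM for Itgb1 and 70.8 CPM for Itgb7 at day 1, and that of Itgb2 at steady state to 89.6 CPM.

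No paired analysis was possible because each time point has 1 library. The steady-state library holds the fewest UMIs, and 3 counts there equal 1.81 CPM, so levels of Itgax, Itgal and Itgav at steady state are poorly set. Doublets, free RNA and the mix of cells between libraries were not separated from changes within cells.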
